A study of Mus musculus with 6 samples.

Results

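The collagen chain genes were read as the entries of the deposited gene table whose symbol is Col, a number, the letter a and a number. The table held 44 of them among 23472 named genes. RNA sequencing had been done on LSECs, which are sinusoidal endothelial cells of the liver with pores through their cytoplasm, from C57BL/6 mice aged 7 to 8 weeks. The RBPjcKO group (3 libraries) came from mice with an endothelial conditional knockout of Rbpj, the DNA-binding protein of Notch signalling, and the WT group (3 libraries) from wild-type mice. Mice of both genotypes had received intraperitoneal tamoxifen. No source used here gives the Cre driver, the time after tamoxifen or how the cells were purified, and the labels do not say whether each library was a separate animal, so the p-values rest on the spread among these libraries, which may be technical.

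Collagens are matrix proteins whose alpha chains wind into a helix of several chains, and each chain has its own gene. Fibrillar collagens build the fibres of connective tissue, collagen IV builds the sheet of basement membranes, and smaller classes link fibrils, form beaded filaments or span the cell membrane. In healthy liver the space beneath LSECs holds collagens but no continuous basement membrane, and stellate cells and portal fibroblasts are the known main source of fibrillar collagen there.

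The libraries held 30958761 to 40459702 counts in named genes, and 14869 genes passed the filter on low counts. Rbpj stood at 16.97, 19.8 and 17.6 CPM (counts scaled to library size, with TMM factors) in RBPjcKO, against 41.6, 46.9 and 45.5 CPM in WT, so each library fitted its label. The 12 LSEC markers summed to 27005 to 32096 CPM in RBPjcKO and 31677 to 36416.5 CPM in WT. Of these 12, 3 were called lower (25%, beside 7.74% of all genes tested) and 0 higher (beside 9.0%). Their median log2 fold change was 0.01, with 6 of 12 above 0. The 18 stellate cell and fibroblast markers (collagens left out) summed to 1951, 2024 and 3170 CPM in RBPjcKO and 3681.5, 3416 and 3264 CPM in WT. Of these 18, 7 were lower in RBPjcKO (38.9%, beside 7.74% of all genes tested) and 0 higher (edgeR, adjusted p under 0.05). None was at 0 in either group. Of the markers tested for other cells, 3 of 8 for hepatocytes (37.5%) and 2 of 6 for lymphocytes (33.3%) were higher. Over all genes tested 9.0% were higher. The lymphocyte calls were Cd79a and Ms4a1 (only 2 to 12 counts per WT library). Ms4a1 passed the filter on low counts through its RBPjcKO libraries, so its call is no support for a rise of the lymphocyte list. Cd79b, Cd3e, Cd3g and Nkg7 were not called, at log2 fold changes of 0.77, -1.05, -1.43 and -0.78. For Kupffer cells 0 of 6 and for smooth muscle 0 of 3 were called. The Kupffer markers had a median log2 fold change of -1.07, with 0 of 6 above 0. They summed to 1104, 329 and 780 CPM in RBPjcKO and 1703, 852 and 1694 CPM in WT. All cells of a sample were measured together, so fewer cells of a type and less RNA per cell cannot be told apart.

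Collagen IV changed in both directions, and 6 of its 6 chains passed the test. The abundant chains Col4a1 and Col4a2 rose 2.07-fold and 2.17-fold in RBPjcKO, whereas the scarce chains Col4a3, Col4a4, Col4a5 and Col4a6 fell to between 0.128 and 0.341 of their WT level. Outside collagen IV, the transmembrane chain Col13a1, among the most abundant collagens of WT cells, fell 3.34-fold, the transmembrane chain Col23a1 rose 3.50-fold and the basement membrane chain Col15a1 rose 2.43-fold. The fibrillar chains Col5a2, Col24a1 and Col27a1 fell, while Col1a1, Col1a2 and Col3a1 did not pass the test. In all, 36 of the 44 chains passed the filter and 12 of them (33.3%) were called at an adjusted p under 0.05, 4 higher and 8 lower in RBPjcKO, beside 16.7% of all genes tested. Separately by direction, 11.1% of tested chains were higher and 22.2% lower, beside 9.0% and 7.74% of all genes. Their median log2 fold change was -0.15, and -0.00469 over all genes tested.

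Single libraries moved the number of called chains. Without WT replicate 2 there were 6 (3 higher, 3 lower), beside 5.27% of all genes tested in that fit. Without WT replicate 3 there were 6 (3 higher, 3 lower), beside 10.3%, and without RBPjcKO replicate 1 there were 7 (3 higher, 4 lower), beside 11.0%. Without WT replicate 1 there were 8 (5 lower), beside 12.1%, without RBPjcKO replicate 2 there were 8 (4 lower), beside 9.48%, and without RBPjcKO replicate 3 there were 13 (10 lower), beside 11.3%. Col4a1, Col4a2, Col4a3, Col4a4, Col13a1 and Col23a1 were called in every one of these 6 fits. The 3 RBPjcKO libraries lay wholly above or below the 3 WT libraries for 14 of the 36 chains (38.9%), beside 40.3% of all genes tested. They lay above WT for 5 chains, beside 20.7% of all genes, and below WT for 9 chains, beside 19.6%. With other filters, scalings and tools the called chains numbered 10 to 13, while the share of all genes called was 12.7% with no filter beyond 1 count, 15.4% with a filter of 5 counts, 17.1% with upper-quartile scaling, 16.1% with library totals, 10.7% with cDNA clones included, 24.4% with DESeq2 and 15.6% with limma. At an adjusted p under 0.01 the called chains numbered 6, beside 4.07% of all genes, and with the log2 fold change required to reach 1 in size they numbered 10, beside 6.02%.

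**Figure D1:**
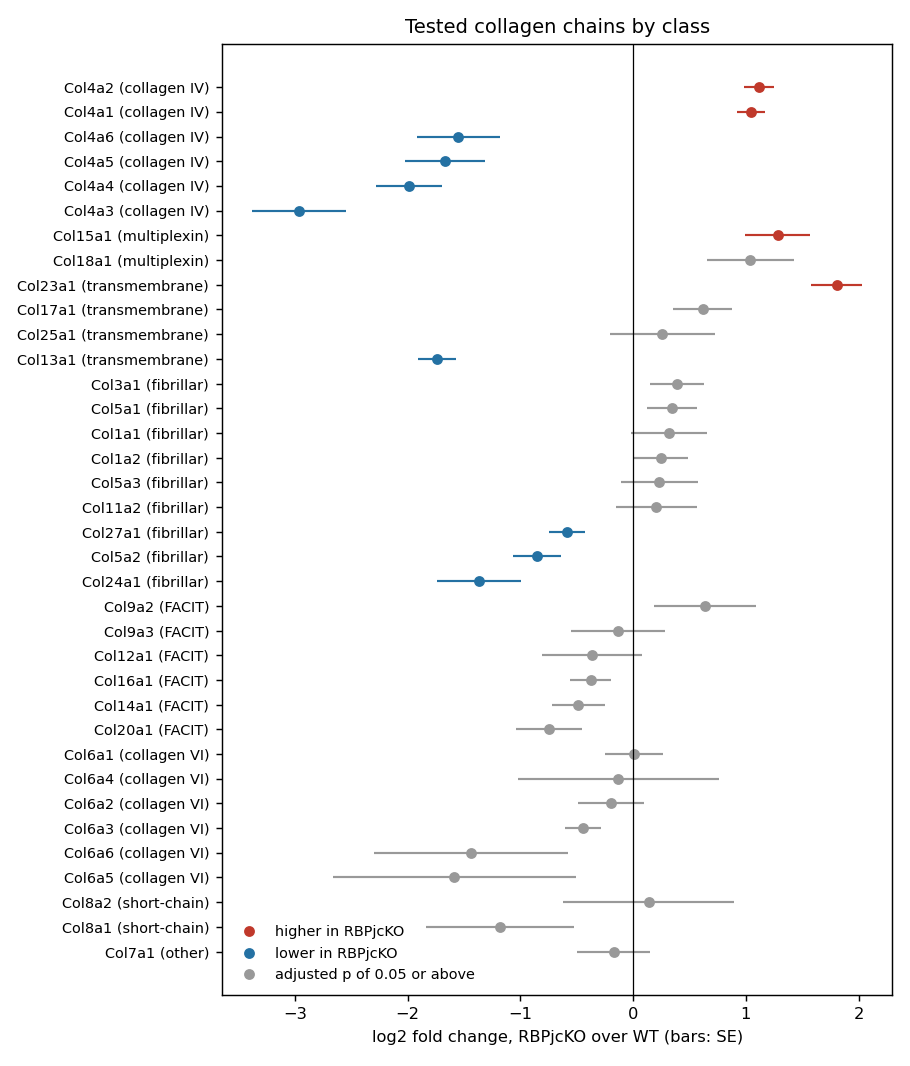
Log2 fold change of RBPjcKO over WT for the 36 tested collagen chains, grouped by class, with bars for the standard error. Red points are chains called higher, blue points chains called lower and grey points chains at an adjusted p of 0.05 or above. Collagen IV holds points on both sides, with Col4a3 farthest to the left at -2.96.

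Chains were first set side by side by their level per length (RPKM, reads scaled to gene length and library size, as deposited). In RBPjcKO, Col4a1 was the most abundant chain at 270 ± 36.6 RPKM, against 132 ± 4.91 RPKM in WT (SD, n = 3 each). Col4a2 was second in RBPjcKO at 247 ± 36.9 RPKM, against 115 ± 4.25 RPKM in WT. Col13a1 had 35.6 ± 3.98 RPKM in RBPjcKO and 120 ± 20.6 RPKM in WT. In WT the libraries of Col13a1 overlapped those of Col4a1 and Col4a2, and in WT replicate 1 Col13a1 was the highest of all chains at 144 RPKM. Col14a1, Col3a1 and Col6a1 came next, with means over the 6 libraries of 43.9, 32.5 and 23.8 RPKM. Among all named genes Col4a1 ranked between 176 and 227 by RPKM in RBPjcKO and between 373 and 406 in WT. Col13a1 ranked between 1501 and 1999 in RBPjcKO and between 353 and 485 in WT.

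The make-up of collagen transcripts therefore differed between the groups. Col4a1 and Col4a2 together held 72.3%, 71.1% and 67.6% of summed collagen RPKM in RBPjcKO, against 44.5%, 44.0% and 44.2% in WT. Col13a1 held 5.58%, 5.65% and 3.65% in RBPjcKO, against 25.5%, 18.6% and 20.5% in WT. The fibrillar chains held 10.5% to 13.4% in RBPjcKO and 11.3% to 16.8% in WT, ranges that overlap. The sum over all 44 chains was 713, 625 and 873 RPKM in RBPjcKO and 564, 575 and 534 RPKM in WT. Without Col4a1 and Col4a2 it was 198, 181 and 283 RPKM in RBPjcKO and 313, 322 and 298 RPKM in WT, so the order of the groups turned round. Of that sum Col13a1 alone gave 39.8, 35.3 and 31.9 RPKM in RBPjcKO and 144, 107 and 109 RPKM in WT. The sum without Col13a1 was not examined, so the turn does not describe the remaining chains as a body. Shares of a sum are not independent, since a gain of the most abundant chains lowers the share of each other chain.

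**Figure D2:**
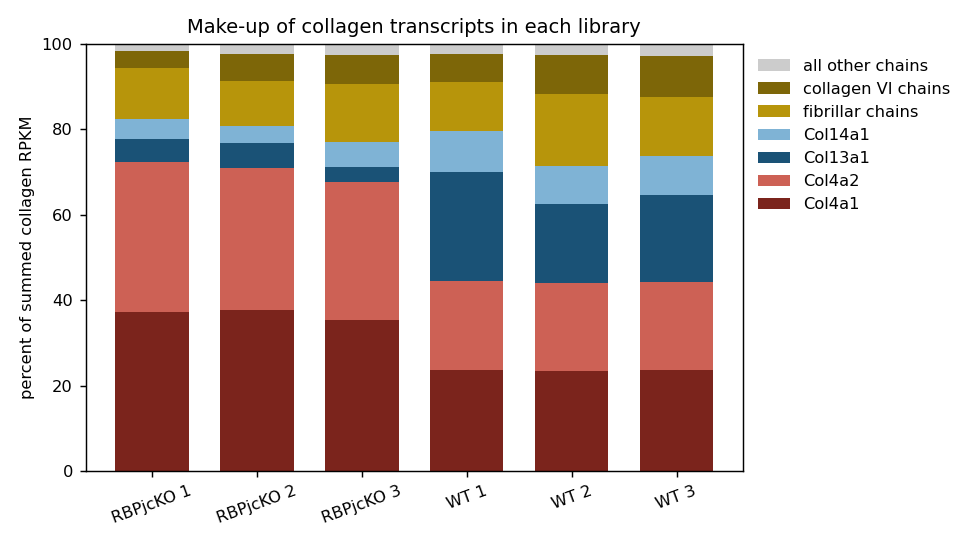
Percent of summed collagen RPKM in each library, with the RBPjcKO libraries to the left of the WT libraries. The share of Col4a1 and Col4a2 runs from 67.6% to 72.3% in RBPjcKO and from 44.0% to 44.5% in WT, and that of Col13a1 from 3.65% to 5.65% in RBPjcKO and from 18.6% to 25.5% in WT.

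Collagen IV chains are known to assemble in fixed combinations. Col4a1 and Col4a2 products form the network found in most basement membranes, Col4a3, Col4a4 and Col4a5 products a network best known from the kidney glomerulus, and Col4a5 and Col4a6 products a network of some epithelial and smooth muscle basement membranes. The genes lie in pairs on opposite strands, with their starts side by side. On GRCm38, Col4a1 (chromosome 8, 11198423 to 11312826, minus strand) and Col4a2 (11312829 to 11449287, plus strand) have 2 bases between their starts in the deposited table. Col4a4 (chromosome 1, 82450723 to 82586849, minus strand) and Col4a3 (82586921 to 82722059, plus strand) have 71 bases between theirs. Col4a6 (chromosome X, 141165403 to 141474076, minus strand) and Col4a5 (141475419 to 141689235, plus strand) have 1342 bases.

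The sequence between and before the starts of the falling pairs is shown because their members moved together. A stretch before Col13a1 is shown because that gene fell most among the abundant chains. It was cut as the 30 bases around a TGGGAA match, so it holds the match by choice. Col4a1 and Col4a2 also moved together, upward, and their sequence is not shown. Sequences are from RefSeq (GRCm38.p6), 5′ to 3′ on the strand of the named gene. Capitals mark TGGGAA on either strand, the core of the known Rbpj binding motif. They are chr1:82586850-82586920 (minus), the whole interval between Col4a4 and Col4a3, chrX:141475169-141475369 (plus) before Col4a5, chrX:141474096-141474326 (minus) before Col4a6 and chr10:61979135-61979164 (minus) before Col13a1.
Col4a4 to Col4a3: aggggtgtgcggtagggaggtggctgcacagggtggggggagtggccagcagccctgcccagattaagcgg
Col4a5: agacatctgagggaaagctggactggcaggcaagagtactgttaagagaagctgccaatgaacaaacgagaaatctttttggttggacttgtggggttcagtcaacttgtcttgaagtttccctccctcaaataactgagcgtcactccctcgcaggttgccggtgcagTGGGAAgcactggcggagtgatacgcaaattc
Col4a6: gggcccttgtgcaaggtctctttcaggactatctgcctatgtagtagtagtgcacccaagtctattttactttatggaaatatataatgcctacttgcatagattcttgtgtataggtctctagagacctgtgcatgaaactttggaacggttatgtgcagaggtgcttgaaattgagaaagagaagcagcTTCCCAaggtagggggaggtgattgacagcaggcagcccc
Col13a1: aggagattagttTGGGAAgtagcgcccggc

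TGGGAA was searched on both strands of the RefSeq windows that run from 250 bases before to 50 bases after each gene's start. It stood in 8397 of 32851 windows of all genes (25.6%) and in 12 of the 38 windows found for 35 of the 44 chains (31.6%). Of the 12 called chains 10 had a window, and 3 of these held it. The match began 81 bases before the start of Col4a5, 59 bases before that of Col4a6 and 44 bases before that of Col13a1. The match of Col4a5 is also a match to the longer GTGGGAA, which contains TGGGAA and stood in 6.38% of all windows and in 2 of the chains' windows. No match was found in the windows of Col4a1, Col4a2, Col4a4, Col15a1, Col23a1, Col24a1 and Col27a1, and Col4a3 and Col5a2 had no window. A match of 6 letters is a description of the sequence only.

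Col4a1 had 2153, 1875 and 2431 CPM in RBPjcKO, against 1101, 1039 and 985 CPM in WT. Each RBPjcKO library was above each WT library, and the log2 fold change was 1.05 (SE 0.12, adjusted p = 0.00346 by edgeR, quasi-likelihood test, Benjamini-Hochberg). Col4a2 had 1972, 1614 and 2160 CPM in RBPjcKO, against 929, 882 and 834 CPM in WT. Its log2 fold change was 1.12 (SE 0.13, adjusted p = 0.00334 in edgeR's quasi-likelihood fit), again with no overlap between the groups. Within each library the chains stayed close to the same proportion. The ratio of Col4a1 to Col4a2 RPKM was 1.06, 1.13 and 1.09 in RBPjcKO and 1.15, 1.14 and 1.15 in WT, a small difference without overlap (exact two-sided permutation p = 0.10, the smallest that 3 against 3 libraries allow, and 0.183 adjusted over 11 ratios examined).

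Col4a3 had 1.11, 1.97 and 0.616 CPM in RBPjcKO, against 7.01, 11.3 and 10.5 CPM in WT. These levels rest on 24 to 79 counts per RBPjcKO library and 257 to 424 counts per WT library. The log2 fold change was -2.96 (SE 0.42, adjusted p = 0.00574 in edgeR's quasi-likelihood fit). Leaving out single libraries moved it between -3.47 and -2.64. Its neighbour Col4a4 had 1.32, 2.29 and 1.82 CPM in RBPjcKO, against 5.16, 7.97 and 8.45 CPM in WT, a 3.96-fold fall (log2 fold change -1.99, SE 0.29, adjusted p = 0.00665 by the same test). Neither gene overlapped between the groups. The Col4a4 to Col4a3 ratio of RPKM was 1.31, 1.28 and 3.26 in RBPjcKO and 0.811, 0.775 and 0.884 in WT (exact two-sided permutation p = 0.10, 0.183 adjusted over 11 ratios). Inside the span of Col4a3, 2 cDNA clones on the opposite strand had 195 to 322 counts per library in RBPjcKO and 184 to 304 in WT, and no source used here states whether counting used the strand.

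The X-linked pair also fell. Col4a5 had 1.01, 1.87 and 2.26 CPM in RBPjcKO, against 3.79, 6.72 and 5.85 CPM in WT (3.18-fold lower, log2 fold change -1.67, SE 0.36, adjusted p = 0.0220 in edgeR's quasi-likelihood fit). Col4a6 had 1.01, 0.822 and 1.72 CPM in RBPjcKO, against 2.35, 4.07 and 4.02 CPM in WT (2.93-fold lower, log2 fold change -1.55, SE 0.37, adjusted p = 0.0301 by the same test). Their libraries did not overlap between the groups, but both calls depended on single libraries. The adjusted p of Col4a5 reached 0.0774 and that of Col4a6 reached 0.0983 when a library was left out, and they kept their call in 3 and 2 of the 6 such fits. Taken as a share of collagen IV RPKM, Col4a3 to Col4a6 made up 0.0958%, 0.174% and 0.129% in RBPjcKO and 0.770%, 1.34% and 1.35% in WT. Marker sums of cholangiocytes and mesothelial cells were also lower on average in RBPjcKO, as were those of stellate and Kupffer cells. The same held for lymphocytes (20.2 CPM in RBPjcKO, 27.6 CPM in WT) and LSECs (30280 CPM in RBPjcKO, 33503.5 CPM in WT). Those of hepatocytes and smooth muscle (26.9 CPM in RBPjcKO, 25.0 CPM in WT) were not. The 6 cholangiocyte markers summed to 80.6, 87.5 and 119 CPM in RBPjcKO and 211, 375 and 185 CPM in WT. Of these 6, 3 were called lower (50%, beside 7.74% of all genes tested) and none was at 0. The 6 mesothelial markers, of which Krt19 is shared with that list, summed to 26.0, 54.1 and 101 CPM in RBPjcKO and 63.8, 180 and 224 CPM in WT, with 0 of 6 called by edgeR and none at 0. The part of any of these cell types in the fall of Col4a3 to Col4a6 was not tested.

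**Figure D3:**
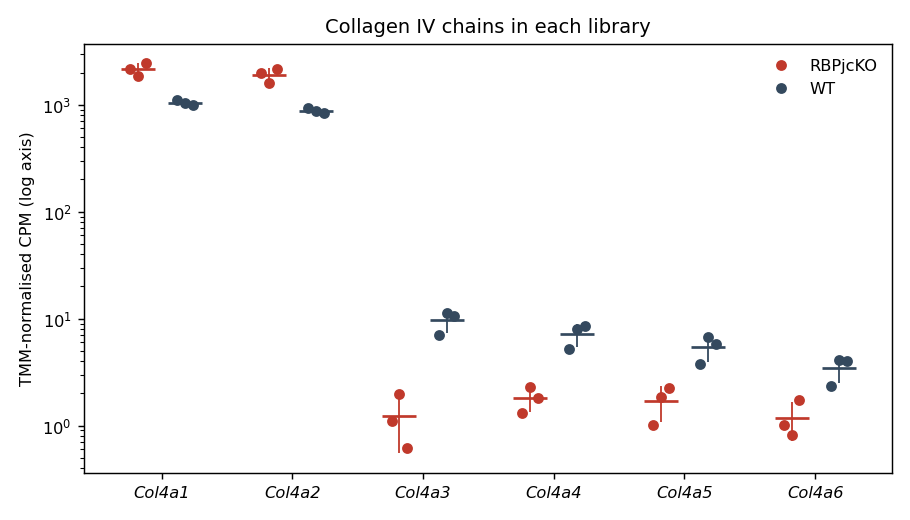
TMM-normalised CPM of the 6 collagen IV chains in each library on a log axis, RBPjcKO to the left of WT for each gene, with a horizontal line at the mean and a vertical line for the SD (n = 3). Col4a1 and Col4a2 lie at 1614 to 2431 CPM in RBPjcKO and 834 to 1101 CPM in WT, and the other 4 chains are lower in RBPjcKO than in WT without overlap.

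Transmembrane collagens moved in opposite directions. Col13a1, which encodes a membrane-spanning collagen of cell adhesion sites, had 142, 123 and 110 CPM in RBPjcKO, against 517, 362 and 374 CPM in WT. The gene lies on chromosome 10, 61838498 to 61979108. Every RBPjcKO library was below every WT library, with a log2 fold change of -1.74 (SE 0.17, adjusted p = 0.00173 in edgeR's quasi-likelihood fit) and 4291 to 5464 counts per library in RBPjcKO and 11831 to 18964 in WT. The adjusted p was at most 0.00838 when a library was left out. Col23a1, another membrane-spanning chain (chromosome 11, 51289920 to 51583925), had 17.3, 25.4 and 17.3 CPM in RBPjcKO, against 7.15, 5.11 and 4.87 CPM in WT. Its log2 fold change was 1.81 (SE 0.22, adjusted p = 0.00387 by the same test), and the groups did not overlap. Of the other members of the class, Col17a1, a component of hemidesmosomes in epithelia, had 5.33 ± 1.63 CPM in RBPjcKO and 3.48 ± 0.325 CPM in WT (SD, n = 3 each) and overlapped. Col25a1 stayed below 1 CPM in each library. Neither passed the test.

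The multiplexins Col15a1 and Col18a1 belong to basement membranes, and the C-terminal fragment of Col18a1 is endostatin, known as an inhibitor of angiogenesis. Col15a1 (chromosome 4, 47208012 to 47313165) was scarce, with 2.75, 1.87 and 2.05 CPM in RBPjcKO, against 0.873, 1.10 and 0.759 CPM in WT. Its groups did not overlap (log2 fold change 1.28, SE 0.29, adjusted p = 0.0260 in edgeR's quasi-likelihood fit). That call was kept in 1 of the 6 fits without a library, with an adjusted p of up to 0.0778. Col18a1 had 29.1, 31.9 and 84.1 CPM in RBPjcKO, against 25.5, 23.3 and 21.8 CPM in WT. Its RBPjcKO libraries were all above WT, but RBPjcKO replicate 3 stood far above the other two, and the test was not passed (log2 fold change 1.04, SE 0.39, adjusted p = 0.104 by the same test). Without RBPjcKO replicate 3 the log2 fold change of Col18a1 was 0.38, and with DESeq2 on all libraries its adjusted p was 0.0195. RBPjcKO replicate 3 also had the highest sums of stellate cell markers (3170 CPM) and of the 8 hepatocyte markers (3487 CPM) among RBPjcKO libraries. Their part in the Col18a1 value was not tested.

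**Figure D4:**
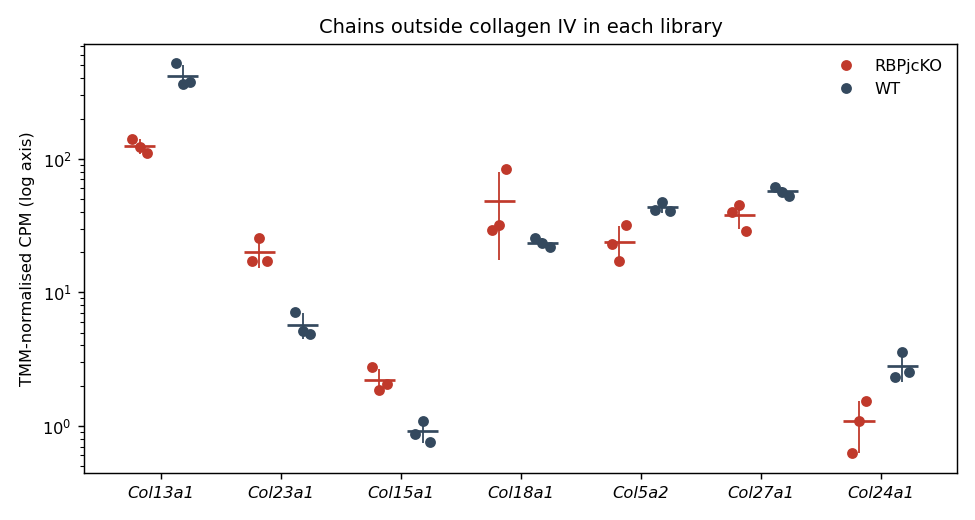
TMM-normalised CPM per library on a log axis for Col13a1, Col23a1, Col15a1, Col18a1, Col5a2, Col27a1 and Col24a1, RBPjcKO to the left of WT, with the mean as a horizontal line and the SD as a vertical line (n = 3). Col13a1 is at 110 to 142 CPM in RBPjcKO and 362 to 517 CPM in WT, and a single RBPjcKO library of Col18a1 stands at 84.1 CPM.

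Among the 11 fibrillar chains, 9 were tested, 3 fell (33.3%, beside 7.74% of all genes tested) and 0 rose (beside 9.0%), with a median log2 fold change of 0.23. Collagen I and III, the main fibrillar collagens of liver, did not pass the test. Col1a1 had 66.2, 46.6 and 81.0 CPM in RBPjcKO and 32.5, 79.9 and 42.7 CPM in WT. Col1a2 had 125, 106 and 196 CPM in RBPjcKO and 110, 150 and 101 CPM in WT. Col3a1 had 254, 168 and 315 CPM in RBPjcKO and 146, 223 and 194 CPM in WT. The groups overlapped for each of these genes, and their log2 fold changes were 0.32 (SE 0.34), 0.25 (SE 0.25) and 0.39 (SE 0.24).

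Collagen V, which is built into fibrils with collagen I and regulates their width, showed unequal chains. Col5a2 (chromosome 1, 45374331 to 45503282) had 22.9, 17.1 and 32.0 CPM in RBPjcKO, against 41.1, 47.8 and 41.0 CPM in WT. It fell 1.80-fold without overlap (log2 fold change -0.85, SE 0.21, adjusted p = 0.0361 in edgeR's quasi-likelihood fit). Its partner chain Col5a1 had 83.0, 72.3 and 137 CPM in RBPjcKO and 72.2, 78.8 and 78.8 CPM in WT, with overlap and no call (adjusted p = 0.306 by the same test). Within libraries the ratio of Col5a1 to Col5a2 RPKM was 2.85, 3.33 and 3.37 in RBPjcKO and 1.38, 1.30 and 1.52 in WT. Col3a1 is the neighbour of Col5a2, with 24624 bases between their ends, and the ratio of Col3a1 to Col5a2 RPKM was 13.2, 11.7 and 11.7 in RBPjcKO and 4.22, 5.55 and 5.62 in WT. Neither ratio overlapped between the groups, and for each the exact two-sided permutation p was 0.10 (0.183 adjusted over 11 ratios). By contrast the ratio of Col1a1 to Col1a2 overlapped, at 0.578, 0.479 and 0.452 in RBPjcKO and 0.323, 0.583 and 0.465 in WT.

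The minor fibrillar chains Col24a1 and Col27a1 were lower in RBPjcKO. Col24a1 had 0.622, 1.10 and 1.54 CPM in RBPjcKO, against 2.32, 3.56 and 2.53 CPM in WT (2.58-fold lower, adjusted p = 0.0460 in edgeR's quasi-likelihood fit). Col27a1 had 39.7, 45.2 and 28.8 CPM in RBPjcKO, against 61.7, 56.1 and 52.9 CPM in WT (log2 fold change -0.59, adjusted p = 0.0484 by the same test). Neither gene overlapped between the groups. Both calls lay close to the threshold, as did that of Col5a2, and each of the 3 was kept in only 1 of the 6 fits without a library, with adjusted p of up to 0.141, 0.127 and 0.110 for Col24a1, Col27a1 and Col5a2. Of the remaining fibrillar chains, Col5a3 and Col11a2 were tested and not called, and Col2a1 and Col11a1 had too few counts to be tested.

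Chains that associate with fibrils or form beaded filaments gave no call by edgeR's test. Of the 15 chains of these classes 12 were tested, 2 had an unadjusted p under 0.05 and 0 were called by DESeq2. Col14a1, which coats fibrils and was the most abundant of them, had 258, 198 and 394 CPM in RBPjcKO and 439, 380 and 370 CPM in WT. Its log2 fold change was -0.48 (SE 0.23, adjusted p = 0.184 in edgeR's quasi-likelihood fit), and without RBPjcKO replicate 3 it was -0.80 with adjusted p = 0.0222. Col16a1 had 20.1, 22.0 and 32.4 CPM in RBPjcKO and 29.3, 33.3 and 34.2 CPM in WT, and Col6a3 had 61.1, 61.5 and 83.7 CPM in RBPjcKO and 107, 95.2 and 78.7 CPM in WT. Both also passed the test without RBPjcKO replicate 3 (adjusted p = 0.0272 and 0.0378 in edgeR's quasi-likelihood fit). In RBPjcKO that library had the highest value of Col14a1, Col16a1 and Col6a3 and the highest stellate marker sum, 3170 CPM against 1951 and 2024 CPM in the other RBPjcKO libraries. The part of stellate cell content in these values was not tested.

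Collagen VI builds beaded filaments from Col6a1, Col6a2 and Col6a3 or a chain related to it. Col6a1 had 76.2, 103 and 161 CPM in RBPjcKO and 93.9, 118 and 126 CPM in WT, with means of 113 ± 43.2 CPM in RBPjcKO and 113 ± 16.9 CPM in WT (SD, n = 3 each). Col6a2 had 36.8, 54.5 and 82.8 CPM in RBPjcKO and 49.2, 73.6 and 76.8 CPM in WT. Their proportion varied little, with a Col6a1 to Col6a2 ratio of RPKM from 1.78 to 1.94 in RBPjcKO and from 1.51 to 1.79 in WT. Col6a5 varied most among libraries, with 0.207, 4.56 and 3.72 CPM in RBPjcKO and 1.69, 19.4 and 4.33 CPM in WT, and was not called.

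The remaining tested chains were scarce. Col12a1, Col20a1, Col7a1, Col9a3 and Col6a4 stood between 0.104 and 2.97 CPM, and Col9a2, Col8a1, Col8a2, Col25a1 and Col6a6 between 0.0259 and 1.55 CPM, none of them called by edgeR's test. Col20a1 had 1.43, 1.15 and 0.873 CPM in RBPjcKO and 1.66, 2.30 and 1.80 CPM in WT, without overlap but with adjusted p = 0.120 by the same test. The other 8 chains were not tested, with at most 7 counts in any library. Col2a1, Col10a1, Col11a1, Col22a1 and Col28a1 had a few counts each, and Col9a1, Col19a1 and Col26a1 had none in 6 libraries, which allows a level of up to 0.0134 CPM (3 counts of the total, counting error only). All 12 called chains reached the filter level of 0.260 CPM in each of the 6 libraries, so none entered the test through 1 group alone.

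Collagen chains are modified, folded, secreted and cross-linked by dedicated proteins, and 37 such genes were examined. Of the 36 tested, 11 rose and 4 fell in RBPjcKO (41.7% called, beside 16.7% of all genes tested), with a median log2 fold change of 0.11. Peroxidasin (Pxdn), which forms the sulfilimine cross-links of collagen IV, had 1005, 911 and 1027 CPM in RBPjcKO, against 541, 477 and 395 CPM in WT (2.08-fold higher, adjusted p = 0.00400 in edgeR's quasi-likelihood fit). Loxl2, a lysyl oxidase that cross-links collagen IV, had 222, 180 and 250 CPM in RBPjcKO, against 127, 75.6 and 100.04 CPM in WT (2.16-fold higher, adjusted p = 0.0130 by the same test). Neither gene overlapped between the groups, and both kept their call in each fit without a library. Serpinh1, which encodes the collagen chaperone HSP47, had 479, 299 and 456 CPM in RBPjcKO, against 236, 201 and 184 CPM in WT (1.99-fold higher). Its adjusted p was 0.0154 by the same test, and its call was kept in 4 of the 6 fits without a library. Fkbp10, a prolyl isomerase gene of the endoplasmic reticulum, had 33.4, 31.2 and 59.9 CPM in RBPjcKO, against 9.17, 10.4 and 9.62 CPM in WT, the largest rise in the list (4.27-fold, adjusted p = 0.00368 by the same test).

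Sparc, whose product binds collagens including collagen IV, was the most abundant gene of the list by RPKM. It had 3421, 3152 and 3295 CPM in RBPjcKO, against 1349, 2105 and 2200.4 CPM in WT (1.75-fold higher, adjusted p = 0.0293 in edgeR's quasi-likelihood fit, called in 2 of the 6 fits without a library). P4hb, the beta subunit of prolyl hydroxylase, had 643 ± 80.8 CPM in RBPjcKO and 485 ± 7.91 CPM in WT (SD, n = 3 each), a call that was lost in each fit without a library. Plod1, Plod3, Lepre1 (now P3h1), Ppib and Kdelr2 also rose, by 1.30-fold to 1.49-fold. In that order, they kept their call in 5, 1, 5, 5 and 3 of the 6 fits without a library. Hydroxylases were not uniform. Leprel1 (now P3h2), a prolyl 3-hydroxylase known to act on collagen IV, had 18.7, 11.6 and 13.1 CPM in RBPjcKO, against 42.7, 32.0 and 25.9 CPM in WT (2.32-fold lower, adjusted p = 0.0165 by the same test). Its call was kept in 5 of the 6 fits without a library. P4ha2, a prolyl hydroxylase subunit, and Fkbp14 fell 1.56-fold and 1.69-fold, each called in 2 of the 6 fits without a library. The fourth gene called lower, the prolyl hydroxylase subunit P4ha3, had 6, 1 and 6 counts in RBPjcKO and 16, 41 and 20 counts in WT. It passed the filter through its WT libraries alone, so its call is no support for a fall of the list, and it was kept in 1 of the 6 fits without a library. The number of called genes was 4 (4 higher, 0 lower) without WT replicate 2, beside 5.27% of all genes tested in that fit. Without RBPjcKO replicate 1 it was 9 (7 higher, 2 lower), beside 11.0%. Without RBPjcKO replicate 2 it was also 9 (7 higher, 2 lower), beside 9.48%. Without WT replicate 1 it was 12 (2 lower), beside 12.1%, and without RBPjcKO replicate 3 it was 10 (2 lower), beside 11.3%. Without WT replicate 3 it was 10 (7 higher), beside 10.3%.

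**Figure D5:**
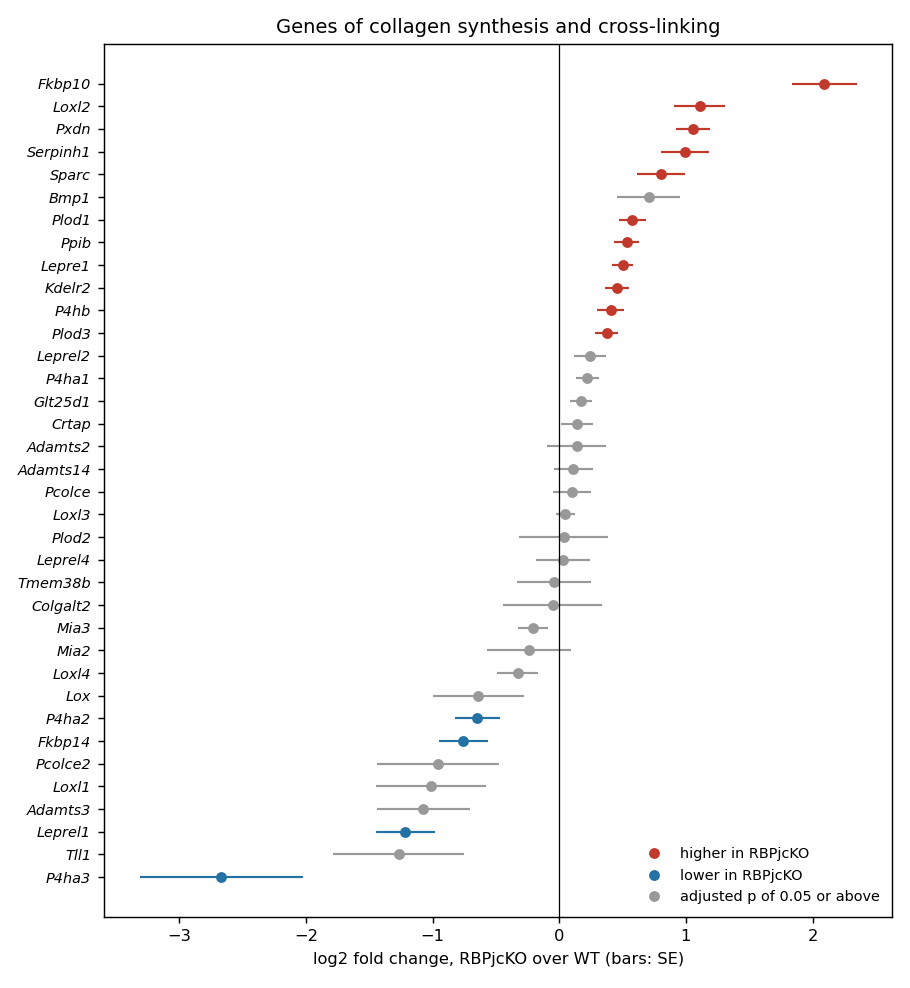
Log2 fold change of RBPjcKO over WT for the 36 tested genes of collagen synthesis, folding and cross-linking, with bars for the standard error. Red points (11 genes) are higher, blue points (4 genes) lower and grey points are at an adjusted p of 0.05 or above, and Fkbp10 lies farthest to the right at 2.09.

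Of 12 genes for collagen receptors on cells, 11 were tested, 2 fell and 0 rose (18.2% called, beside 16.7% of all genes tested). Gpr126 (now Adgrg6), an adhesion receptor known to bind collagen IV, had 1.79, 1.29 and 3.65 CPM in RBPjcKO, against 19.3, 26.4 and 18.7 CPM in WT (adjusted p = 0.00324 in edgeR's quasi-likelihood fit). Gpr56 (now Adgrg1), known to bind collagen III, had 204, 166 and 93.1 CPM in RBPjcKO, against 411, 350 and 315 CPM in WT (2.32-fold lower, adjusted p = 0.0239 by the same test). Gpr56 lost its call without WT replicate 1, WT replicate 2 or RBPjcKO replicate 2. In all, 1 receptor gene was called without WT replicate 2 (beside 5.27% of all genes tested) or RBPjcKO replicate 2 (beside 9.48%). The integrin chains were not called. Itgb1, the most abundant receptor gene by RPKM, had 576, 537 and 587 CPM in RBPjcKO and 512, 618 and 629 CPM in WT, and Itga1 had 206, 168 and 143 CPM in RBPjcKO and 221, 230 and 189 CPM in WT. The discoidin domain receptor gene Ddr1 had 7.20, 9.14 and 14.6 CPM in RBPjcKO and 13.9, 23.9 and 23.2 CPM in WT, with adjusted p = 0.0643 in edgeR's quasi-likelihood fit.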

How the data were processed

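RNA was sequenced from LSECs of 3 RBPjcKO and 3 WT libraries. The authors deposited one gene table with raw counts and RPKM per library, on mm10 (GRCm38), with bcl2fastq and TopHat2 2.0.13 named per the submitters' processing notes. No source used here gives the counting tool, the annotation or the strand setting. In each library the deposited RPKM equals the count scaled by the listed gene length and by the summed counts of all 56825 entries. Of these, 33353 cDNA clone entries were left out of the fit.

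The counts of the 23472 named genes were tested with edgeR 4.0.16 (R 4.3.3), using TMM scaling, filterByExpr (minimum count 10) and the quasi-likelihood test, with Benjamini-Hochberg adjustment over all 14869 genes tested and a threshold of 0.05. Fold changes are RBPjcKO over WT, and the standard error is the absolute log2 fold change divided by the square root of F. The code was tested on simulated data. Alternatives were other filters, scalings and thresholds, the clone entries included, DESeq2 1.42.0, limma 3.58.1 on log2(RPKM + 1), and leaving out each library. Intervals of counting are narrow at 30958761 or more counts per library, except for chains under about 1 CPM.

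The collagen chains and the lists of synthesis genes, receptors and cell markers were chosen with earlier results of these data known. All called chains are named. In the other lists up to 6 called genes were named by the size of the fold change, and the 2 most abundant. Itga1, Ddr1 and the remaining called synthesis genes were added after their values were seen.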

Additional observations from a re-analysis of the deposited data

How the results depend on the processing

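The number of called collagen chains, 12 in the fit reported, was between 10 and 13 with other filters, other scalings, the clone entries included, DESeq2, limma on log2(RPKM + 1) or a log2 fold change of 1 or more in size. With an adjusted p under 0.01 it was 6 (3 higher, 3 lower), and leaving out 1 library gave 6 to 13. For the synthesis genes (15 reported) it was 2 with an adjusted p under 0.01, 5 with a log2 fold change of 1 or more in size, and 4 to 12 without a library. For the receptor genes (2 reported) it was 1 with an adjusted p under 0.01 and 1 to 3 without a library. Over all genes tested, the share called was 4.07% at an adjusted p under 0.01 and 6.02% with the fold change limit. Without a library that share was 5.27% to 12.1%. Across 468 pairs of a chain and an alternative, 412 kept direction and side of the threshold, 32 lost a call (27 of them without a library), 4 gained one and 20 turned sign (17 of them without a library). The turned signs belonged to 11 chains, none of them called, and the smallest adjusted p among them was 0.270. The log2 fold change of Col6a1, 0.01 as reported, was -0.043 with upper-quartile scaling, -0.013 with library totals and -0.061 with limma. Without a library it ran from -0.33 to 0.22 for Col6a1, -0.54 to 0.035 for Col6a2, -0.96 to 0.51 for Col6a4, -0.61 to 0.077 for Col12a1, -0.47 to 0.21 for Col9a3, -0.11 to 0.49 for Col11a2, -0.053 to 0.43 for Col1a2, -0.22 to 0.43 for Col5a3, -0.30 to 0.018 for Col7a1, -0.50 to 1.25 for Col8a2 and -0.24 to 0.53 for Col25a1. Beyond left-out libraries, Col24a1 lost its call with library totals and limma, Col27a1 with a filter of 5 counts, the clone entries included and limma, and Col18a1 gained a call with DESeq2. The cause was not tested. The fall of Rbpj kept its direction and call in each alternative run. Chains near 1 CPM rest on few counts, which limits their precision. No paired analysis was possible because the replicate numbers were given in sample order and the labels pair no RBPjcKO library with a WT library.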
